A study of Arabidopsis thaliana with 12 samples.

Results

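*FLC* (FLOWERING LOCUS C, AT5G10140) and its 5 closest relatives, the MADS AFFECTING FLOWERING genes *MAF1* (AT1G77080), *MAF2* (AT5G65050), *MAF3* (AT5G65060), *MAF4* (AT5G65070) and *MAF5* (AT5G65080), encode MADS-box transcription factors that delay flowering in *Arabidopsis thaliana*. The 6 genes were chosen by name and not by a measured value, but with earlier results of these data known. Of them, 3 are among the 22870 genes that carried a region of either profiled mark. H3K27me3 (trimethylated lysine 27 of histone H3) and the histone variant H2A.Z were profiled by chromatin immunoprecipitation and sequencing (ChIP-seq) in whole rosettes of wild type (WT) and *ref4-3*, with 2 biological replicates for each genotype and mark. Every plant was of the Columbia background, 21 days old, and grown at 22 °C with 16 h of light and 8 h of dark after a short cold treatment of the seeds in the dark. *ref4-3* is a semidominant allele with a single substitution in MED5b, a subunit of the tail of Mediator, the complex that links transcription factors to RNA polymerase II, so the comparison is of 1 mutant allele with its parent background. Each replicate was made from 4 g of rosette tissue, in which fewer cells with a mark and less of the mark per cell cannot be told apart. The substitution does not show in fragment counts and ChIP-seq does not measure expression, so neither the genotype nor the tissue label could be checked against the values.

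FLC represses the flowering genes *FT* and *SOC1* and is known for its silencing by winter cold (vernalization), in which Polycomb repressive complex PRC2 spreads H3K27me3 over the gene. H2A.Z is placed into nucleosomes by the SWR1 remodelling complex, and plants that lack SWR1 subunits are known for low expression of *FLC*, *MAF4* and *MAF5*. *MAF1*, also called *FLM*, sets flowering by ambient temperature, *MAF2* keeps short cold spells from causing flowering, and *MAF2* to *MAF5* stand head to tail as a cluster near the end of chromosome 5.

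The sequences printed here, read from the TAIR10.1 assembly, show where the genes that carry H3K27me3 hold the RY core, CATGCA or its reverse complement TGCATG, the letters that the B3 domain proteins VAL1 and VAL2 bind and through which PRC2 is brought to *FLC*. All lie in introns of their gene, outside every annotated coding and untranslated stretch, and capitals mark the RY core. The *FLC* stretch is chr5:3178778-3178921, printed on the minus strand on which the gene is read, and begins 527 bp into the gene. The others are on the plus strand, at chr5:25992737-25992862 in *MAF4*, which begins 544 bp into that gene, and at chr5:25998588-25998717 and chr5:25998886-25999003 in *MAF5*, where windows that begin 1084 and 1382 bp into the gene hold 3 overlapping copies and a pair.
FLC RY pair: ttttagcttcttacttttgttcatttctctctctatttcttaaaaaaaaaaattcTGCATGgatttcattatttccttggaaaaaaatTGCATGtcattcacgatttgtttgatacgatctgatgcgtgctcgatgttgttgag
MAF4 RY: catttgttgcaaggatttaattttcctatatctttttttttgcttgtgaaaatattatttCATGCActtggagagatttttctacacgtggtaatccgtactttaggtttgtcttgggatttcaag
MAF5 RY run: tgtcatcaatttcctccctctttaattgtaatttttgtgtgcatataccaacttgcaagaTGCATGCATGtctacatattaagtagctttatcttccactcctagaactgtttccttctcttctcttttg
MAF5 RY pair: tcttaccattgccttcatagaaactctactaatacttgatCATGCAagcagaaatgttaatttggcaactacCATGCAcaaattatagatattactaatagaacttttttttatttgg
In the whole H3K27me3 regions, counting both strands and each overlapping copy, *FLC* held 3 matches, *MAF4* 2 and *MAF5* 9. That is 0.496, 0.625 and 2.37 matches per kb, beside 0.663 over all H3K27me3 regions. At least 1 match is usual in stretches this long. Of regions of similar length, 97.4%, 80.2% and 85.0% held one. The printed windows were cut around RY matches and show only part of them, so that they hold matches was set by that choice. Windows of those lengths, tiled over all H3K27me3 regions, held a match in 6.23% to 7.51% of cases and 2 or more in 1.04% to 1.36%. The telobox AAACCCTA, another motif linked to PRC2 recruitment in *Arabidopsis*, occurred 0, 1 and 1 times in the regions of *FLC*, *MAF4* and *MAF5*, and GAGAGAGA 2 times in each. These matches describe the letters and say nothing of what binds there.

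The 4 libraries of H3K27me3 held 5805781 to 8466471 fragments inside regions and those of H2A.Z 7848342 to 10128759, the shallowest H3K27me3 library being *ref4-3* replicate 1. Replicates correlated at 0.994 to 0.997 (H3K27me3) and 0.986 to 0.990 (H2A.Z) in log2 CPM across regions, which share depth and region length. CPM is the fragment count scaled to library depth with trimmed-mean (TMM) factors, and a region is the part of a gene inside islands, the enriched stretches called by the authors in the merged replicates of either genotype. A region was called lower or higher in *ref4-3* at an FDR below 0.05 in edgeR's exact test, adjusted over all regions of the mark, together with a fold change above 1.2.

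Of the 6 members, 3 had no called region of either mark. *MAF1*, *MAF2* and *MAF3* had no region of H3K27me3 and none of H2A.Z, and no island of any of the 8 libraries covered a base pair of them, while *FLC*, *MAF4* and *MAF5* carried both. Of 27444 protein-coding genes, 25.6% had a region of neither mark, 25.8% had one of H3K27me3, 73.2% had one of H2A.Z and 24.7% had both. The gap between islands in the cluster ran along gene borders. *MAF2* (25982254 to 25986435) and *MAF3* (25987309 to 25991412) had no island in WT or *ref4-3*. The nearest H3K27me3 island, that of *MAF4*, began 789 bp past the end of *MAF3* in every library. The H2A.Z island of *MAF4* began 389 bp past *MAF3*, also in every library. At *MAF1* (chromosome 1, 28955483 to 28960234) an H2A.Z island ended 83 bp before the gene in 3 libraries and 283 bp before it in WT replicate 1, and the nearest H3K27me3 island lay 6167 bp downstream. A gene outside the islands has no count, so a mark too weak to be called was not measured there. No difference between genotypes could be tested at these 3 genes.

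The marked genes differed in how much of their length H3K27me3 covered. *FLC* (chromosome 5, 3173382 to 3179448, minus strand) lay almost whole in an island that ran from 3173401 to 3181400 in all 4 libraries, covering 99.7% of the gene and reaching past its start. *MAF4* (25992193 to 25996202) was covered over its first 3200 bp in both WT libraries and over 3000 and 2800 bp in the *ref4-3* libraries. Its WT islands ended at 25995400, and 200 bp before that end lay in both WT islands and in neither *ref4-3* island. *MAF5* (25997504 to 26002619) was covered over 3800 bp in both WT libraries, or 74.3% of the gene. In *ref4-3* replicate 1 the *MAF5* island was broken into a piece of 2000 bp and one of 800 bp, and in replicate 2 it was 3600 bp long. By the authors' score, ranked within each library's list, the WT islands of *MAF5* stood at the 65.2nd and 66.2nd percentiles, the pieces in *ref4-3* replicate 1 at the 41.4th and 13.9th and the island in replicate 2 at the 33.0th. Those of *FLC* stood between the 98.4th and the 99.3rd percentile in all 4 libraries. At *MAF5* too the WT islands, ending at 26001400, reached farther towards the gene end than those of *ref4-3*, which ended at 26000800 in replicate 1 and 26001200 in replicate 2. Replicate 1 was the shallowest library, and the part of depth in the broken island was not tested.

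**Figure D1:**
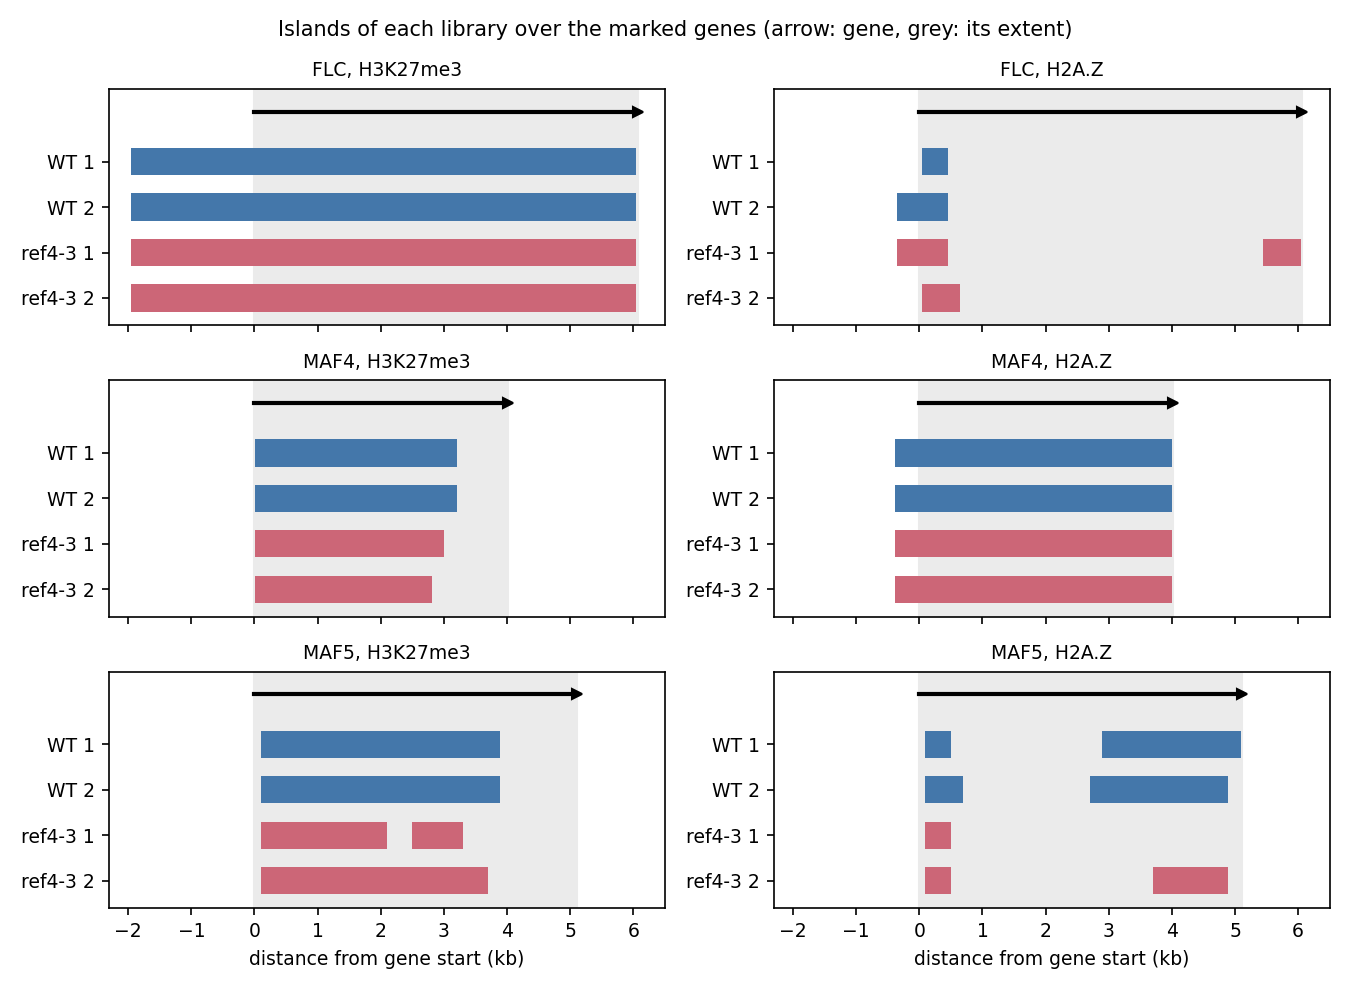
Islands of each library (bars, blue WT and red *ref4-3*) over *FLC*, *MAF4* and *MAF5*, by distance from the gene start in kb, with the gene as an arrow on grey. The H3K27me3 island of *FLC* is 8000 bp long in all 4 libraries, that of *MAF5* is in 2 pieces in *ref4-3* replicate 1, and the H2A.Z island at the end of *MAF5* is missing in *ref4-3* replicate 1 and is 1200 bp long in replicate 2 against 2200 bp in both WT libraries.

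*MAF5* lost H3K27me3 in *ref4-3*. The bounds of its region (25997601 to 26001400) are those of the merged WT island, and that of *ref4-3* ended at 26000800. Part of the region was thus counted only for its WT island. The region is 86.4% intron with 12.3% in coding exons. It held 2037 and 2203 fragments in the WT libraries, which is 263 and 259 CPM, and 960 and 1379 fragments, or 165 and 170 CPM, in the *ref4-3* libraries. The *ref4-3* values lay well below both WT values, and replicates differed little, with 261 ± 2.63 CPM (SD, n = 2) in WT and 168 ± 3.09 in *ref4-3*. Of all H3K27me3 regions, 30.5% had both *ref4-3* libraries below both WT libraries by any margin. The *ref4-3* level was 0.643 times the WT level, and the log2 fold change was -0.64 (SE 0.046, 95% interval -0.73 to -0.55, FDR = 5.89e-42 in edgeR's exact test). Of all 8663 H3K27me3 regions, 0.993% had a log2 fold change this low or lower. *MAF5* was the 1 family region of 3 called lower and none was called higher, beside 7.54% of all regions called lower and 5.43% called higher, and edgeR's quasi-likelihood test and DESeq2 made the same calls. All 3 had an unadjusted p below 0.05, as had 35.2% of all H3K27me3 regions.

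*MAF4*, the adjacent gene, had lower H3K27me3 values in *ref4-3* as well, but short of the fold threshold. Its region (25992201 to 25995400) had 229 and 212 CPM in WT and 182 and 190 CPM in *ref4-3*. The genotypes did not overlap, at 220 ± 11.7 against 186 ± 5.83 CPM. Both *ref4-3* libraries were below both WT libraries at 30.5% of all H3K27me3 regions. This region too has the bounds of the merged WT island, where that of *ref4-3* ended at 25995200. The log2 fold change was -0.24 (SE 0.049, 95% interval -0.34 to -0.14, FDR = 1.50e-05 in edgeR's exact test), or 0.846 times WT. Leaving out WT replicate 2 gave -0.30 and leaving out *ref4-3* replicate 2 gave -0.28, and *MAF4* then counted as called, while leaving out WT replicate 1 gave -0.19 (FDR = 0.0506). The interval did not meet that of *MAF5*.

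*FLC* pointed the other way. Its H3K27me3 region (3173401 to 3179448) had 1128 and 1143 CPM in WT and, in *ref4-3*, 1227 and 1261 CPM. Both *ref4-3* libraries were above both WT libraries, a pattern that 31.4% of all H3K27me3 regions had, against 30.5% with both below. Means were 1135 ± 10.5 and 1244 ± 24.4 CPM, and the log2 fold change of 0.13 (SE 0.033, 95% interval 0.07 to 0.20, FDR = 0.000568 in edgeR's exact test) was 1.10-fold, under the threshold. *FLC* and *MAF4* thus fell in the class of regions that passed the FDR and not the fold, which made up 10.7% of all H3K27me3 regions. Under the alternatives tried, the value at *FLC* ranged from 0.02 to 0.15, and it missed the FDR with loess offsets (0.02, FDR = 0.518) and without WT replicate 1 (FDR = 0.145) or 2 (FDR = 0.0785). The lncRNA gene AT5G01675, annotated across *FLC* on the opposite strand, had nearly the same counts (log2 fold change 0.13), and since fragments were counted without regard to strand the 2 genes cannot be told apart.

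Per kb of region, *FLC* was the most strongly marked member, with 188 ± 1.73 CPM per kb in WT and 206 ± 4.04 in *ref4-3*, at the 91.5th and 93.4th percentiles of all H3K27me3 regions. *MAF4* (68.8 ± 3.66) and *MAF5* (68.7 ± 0.692) did not differ in WT, where their libraries overlapped, and both lay at the 46.4th and 46.3rd percentile. In *ref4-3* they separated. *MAF4* stood at 56.8 and 59.3 CPM per kb and *MAF5* at 43.5 and 44.7, the 38.6th and the 23.1st percentile.

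**Figure D2:**
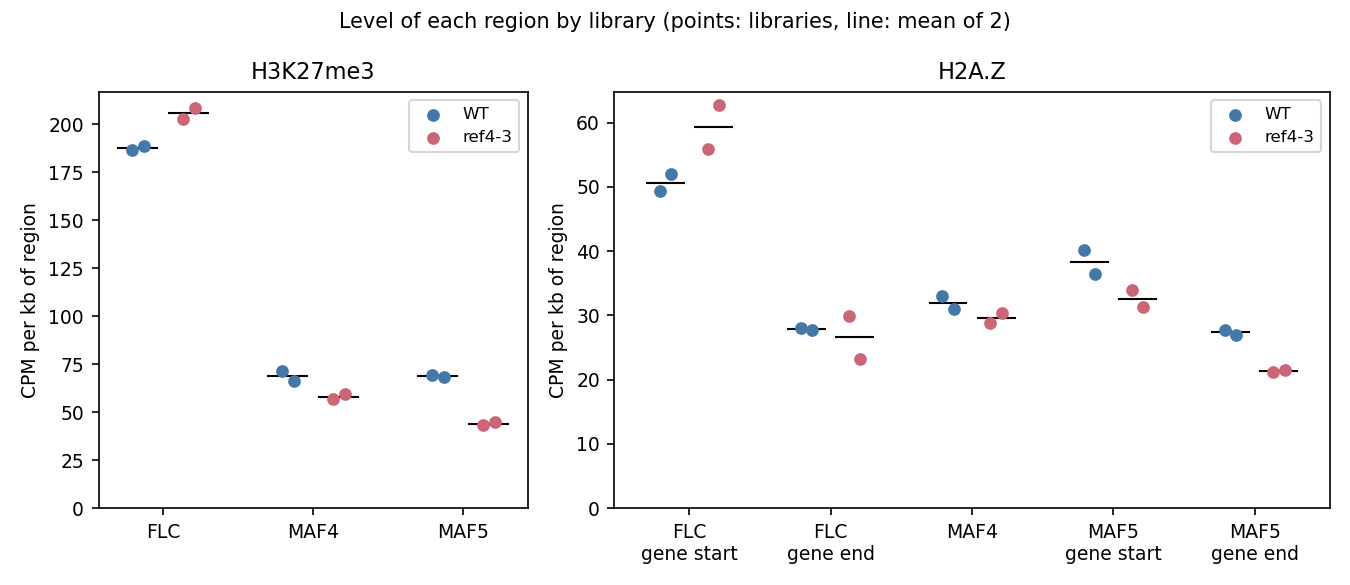
CPM per kb of region in each library (points, blue WT and red *ref4-3*, with the mean of 2 as a line), for H3K27me3 at left and H2A.Z at right on axes of their own. *MAF4* and *MAF5* have the same H3K27me3 level in WT (68.8 and 68.7) and differ in *ref4-3* (58.0 and 44.1), and H2A.Z at the end of *MAF5* is lower in both *ref4-3* libraries (21.1 and 21.5) than in both WT libraries (27.8 and 26.9).

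H2A.Z had a different outline on each gene. *MAF4* was covered over 99.95% of its length in all 4 libraries, by an island that began upstream at 25991801, *FLC* only near its start, and *MAF5* at its start and towards its end. In the merged WT islands and in *ref4-3* replicate 1, a further short H2A.Z island of 600 bp lay at the end of *FLC*. The region of *MAF5* near the gene end (26000201 to 26002400) fell in *ref4-3*, with 61.2 and 59.3 CPM in WT and 46.5 and 47.3 in *ref4-3*. These bounds are those of the merged WT island, and that of *ref4-3* began at 26001201. Part of the region was thus counted only for its WT island, the genotype where the mark is higher. Replicates again lay close, at 60.2 ± 1.33 and 46.9 ± 0.560 CPM, and the genotypes were apart. Both *ref4-3* libraries were below both WT libraries at 24.2% of all H2A.Z regions. The log2 fold change was -0.36 (SE 0.077, 95% interval -0.51 to -0.21, FDR = 0.000410 in edgeR's exact test), 0.779 times WT, and 1.16% of the 24960 H2A.Z regions were as low or lower. It was the 1 family region of 5 called lower, beside 1.63% of all H2A.Z regions, and none was called higher, beside 2.65%. An unadjusted p below 0.05 was found at 2 of the 5, and at 18.3% of all H2A.Z regions. The quasi-likelihood test of edgeR made the same call, but DESeq2 did not (adjusted p = 0.359), and without WT replicate 1 the exact test of edgeR gave an FDR of 0.0646 at a log2 fold change of -0.34. Summed over its 2 regions, H2A.Z at *MAF5* had a log2 fold change of -0.32 (FDR = 0.000280 in edgeR's exact test) and that at *FLC* 0.13 (FDR = 0.358). Over all H2A.Z regions DESeq2 called 34, against 1068 by edgeR's exact test.

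Islands differed at the same end of *MAF5*. Both WT libraries had an H2A.Z island of 2200 bp there, *ref4-3* replicate 1 had none and replicate 2 had one of 1200 bp that began at 26001201. The 800 bp from 26000401 to 26001200, of which 79.8% is intron and 20.3% coding, were thus inside the H2A.Z islands of both WT libraries and of neither *ref4-3* library. Both WT libraries, at 9070114 and 10128759 fragments, were deeper than *ref4-3* replicate 1, at 8863116, and replicate 2, at 7848342, and the part of depth in the shorter islands was not tested. For H3K27me3 the corresponding stretch was 26001201 to 26001400, directly after it. Printed here are the first 200 bases of the H2A.Z stretch, chr5:26000401-26000600, and the H3K27me3 stretch, chr5:26001201-26001400, both on the plus strand of TAIR10.1. At each, islands of the named mark stood in both WT libraries and in neither *ref4-3* library. Islands of the other mark did cover them in *ref4-3*. H3K27me3 islands covered the first in both *ref4-3* libraries, and an H2A.Z island covered the second in replicate 2. Both printed stretches hold no RY core and no telobox, hence no capitals, where 10.4% of windows of this length held an RY core and 3.33% a telobox. All of the first is intron, and 42 bases of the second are coding.
MAF5 H2A.Z stretch: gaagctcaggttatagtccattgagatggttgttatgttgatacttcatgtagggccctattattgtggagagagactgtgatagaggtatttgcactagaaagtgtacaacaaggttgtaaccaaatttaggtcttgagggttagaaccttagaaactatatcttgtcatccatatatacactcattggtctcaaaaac
MAF5 H3K27me3 stretch: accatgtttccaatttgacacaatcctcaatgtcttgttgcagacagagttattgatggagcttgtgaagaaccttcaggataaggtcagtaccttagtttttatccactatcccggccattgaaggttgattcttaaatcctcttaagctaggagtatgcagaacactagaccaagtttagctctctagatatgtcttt

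The other 4 H2A.Z regions did not pass the test. At the start of *MAF5* (25997601 to 25998200) the values were 24.1 and 21.9 CPM in WT and 20.3 and 18.8 in *ref4-3*, with a log2 difference of -0.23 (95% interval -0.46 to 0.00, FDR = 0.278 in edgeR's exact test). *MAF4* had 132 and 124 CPM in WT and 116 and 122 in *ref4-3*, with -0.11 (95% interval -0.23 to 0.01, FDR = 0.330). At both, the *ref4-3* libraries were below the WT libraries, as at 24.2% of all H2A.Z regions. The start region of *MAF5* has the bounds of the merged WT island, where that of *ref4-3* ended at 25998000. The start of *FLC* (3178801 to 3179448) had 32.0 and 33.7 CPM in WT and 36.2 and 40.6 in *ref4-3*, with 0.22 (95% interval 0.04 to 0.40, FDR = 0.146), and 0.14 without *ref4-3* replicate 2. Here the *ref4-3* libraries were above, as at 24% of all regions. This region begins with the merged *ref4-3* island, where that of WT began at 3179001. The end of *FLC* (3173401 to 3174000) had 16.8 and 16.7 CPM in WT and 18.0 and 13.9 in *ref4-3*, so the genotypes overlapped, and its value of -0.06 became 0.11 without *ref4-3* replicate 2. With about 148 fragments on average it was the shallowest family region, and its interval ran from -0.32 to 0.20.

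**Figure D3:**
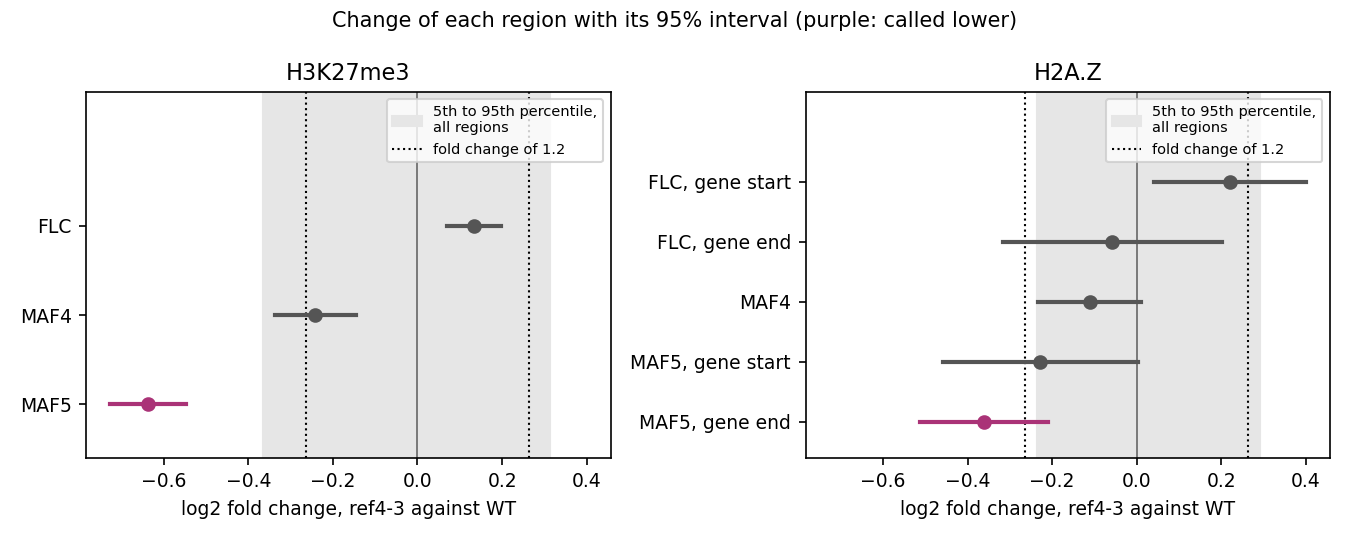
Log2 fold change of each region in *ref4-3* against WT (points) with its 95% interval (bars), the fold threshold of 1.2 (dotted) and the 5th to 95th percentile of all regions (grey). *MAF5* lies outside the grey band in H3K27me3 (-0.64, band -0.36 to 0.31) and, at the gene end, in H2A.Z (-0.36, band -0.24 to 0.29), and the remaining 6 regions have points inside it.

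H2A.Z per kb in WT was highest at the start of *FLC* (50.7 ± 1.90 CPM per kb), followed by the start of *MAF5* (38.3 ± 2.59), *MAF4* (32.0 ± 1.38), the end of *FLC* (27.9 ± 0.183) and the end of *MAF5* (27.4 ± 0.603). The last 2 did not differ beyond the spread, and the others did not overlap. In *ref4-3* the start of *FLC* was again highest, at 59.3 ± 4.83 CPM per kb or the 93.6th percentile of all H2A.Z regions. *MAF5* at its end stood lowest, at 21.3 ± 0.255, the 0.441st percentile, where WT was at the 9.50th.

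Counts of 2 genes in 1 library can be divided without any scaling, and this set *MAF5* against the other marked members. H3K27me3 at *MAF5* was 1.15 and 1.22 times that at *MAF4* in the WT libraries and 0.911 and 0.894 times in the *ref4-3* libraries. Against *FLC* the ratio was 0.233 and 0.227 in WT and 0.135 in both *ref4-3* libraries. In log2 units these ratios differed by -0.39 and -0.77 between genotypes, so *MAF5* had less H3K27me3 relative to both relatives in each *ref4-3* library. For H2A.Z, with the region of most fragments in each gene, *MAF5* over *MAF4* was 0.463 and 0.477 in WT and 0.402 and 0.388 in *ref4-3*, and *MAF5* over *FLC* was 1.91 and 1.76 against 1.28 and 1.16. The differences were -0.25 and -0.59. No ratio overlapped between genotypes, but how many other gene pairs do likewise was not counted. Each had p = 0.333 in the two-sided exact permutation test, the smallest that 2 against 2 libraries allow. The *MAF5* regions used were those called lower in each mark, so the ratios draw on the same counts as these calls.

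**Figure D4:**
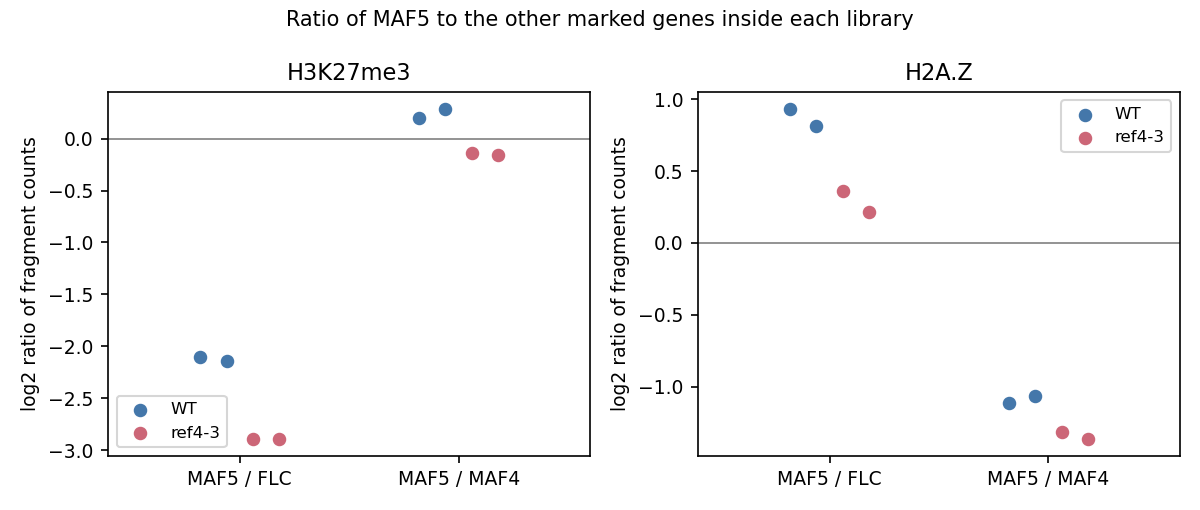
Log2 ratio of fragment counts of *MAF5* to *FLC* and to *MAF4* inside each library (points, blue WT and red *ref4-3*), for H3K27me3 at left and H2A.Z at right. Each *ref4-3* point lies below both WT points of its ratio, by -0.77 and -0.39 in H3K27me3 and by -0.59 and -0.25 in H2A.Z on average.

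The members have no near-identical copies. No stretch of any member had a copy elsewhere in the genome at 95% identity or more over 100 bp. The closest pairs were *FLC* with *MAF2* (85.0% over 233 bp) and *MAF4* with *MAF5* (82.7% over 104 bp). Around the loci, the nearest marked genes were tested in the same fits. *BST1*, the next gene with H2A.Z past *MAF5*, had 93.9 and 91.7 CPM in WT and 89.6 and 94.8 in *ref4-3* (log2 fold change -0.01), and AT5G65100, the next with H3K27me3, had -0.02. Neither passed the test, and the H3K27me3 values of the genes beside *FLC*, AT5G10130 (-0.29, FDR = 0.130 in edgeR's exact test) and *MIPS3* (0.21, FDR = 0.190), did not either. Of the nearest genes at all loci 1 was called, AT1G76965, which lies 33083 bp from *MAF1* and fell in H3K27me3 (log2 fold change -0.44, FDR = 0.000370 in edgeR's exact test). Over all H3K27me3 regions, 7.54% were called lower and 5.43% higher.

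Genes that act on the family were read from lists of *Arabidopsis* flowering genes. Of 16 activators of *FLC*, among them *FRI*, the PAF1 complex genes and the SWR1 subunits *PIE1*, *ARP6* and *SWC6*, 0 had an H3K27me3 region and 7 had an H2A.Z region, with a median log2 fold change of 0.03 beside 0.00 over all H2A.Z regions. Of 8 genes of the autonomous pathway, which keeps *FLC* low, 5 had H2A.Z (median 0.04) and 0 had H3K27me3. Of 12 vernalization and PRC2 genes 5 had H2A.Z (median 0.12), and *VIN3*, the cold-induced partner of PRC2, was the 1 gene with H3K27me3 (-0.03). In these 3 lists edgeR's exact test, its quasi-likelihood test and DESeq2 called 0 genes for either mark, with H3K27me3 resting on *VIN3* alone. The exact test called 1.79% of all genes with H2A.Z lower and 2.9% higher. At those shares, lists this short would hold few calls or none. An unadjusted p below 0.05 was found at 0 of 7 H2A.Z regions of activators. It was found at 1 of 5 in the autonomous and 1 of 5 in the vernalization list, where the share over all H2A.Z regions was 18.3%.

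Calls were found among partners and targets of the family. Of 6 such genes 4 had H3K27me3, of which 1 was called lower and 1 higher, beside 7.7% and 5.52% of all genes with H3K27me3. *AGL24*, a MADS-box gene that promotes flowering, had 154 and 148 CPM in WT and 244 and 246 in *ref4-3*. Both *ref4-3* libraries were thus far above WT, where 31.4% of all H3K27me3 regions had both above by any margin. *AGL24* rose by 0.70 on the log2 scale (SE 0.047, FDR = 1.12e-47 in edgeR's exact test). *SOC1*, the floral integrator that FLC represses, had 217 and 232 CPM in WT and 201 and 175 in *ref4-3*. Its fall, at -0.26 (SE 0.054, FDR = 3.24e-05 in edgeR's exact test), lay at the fold threshold, and with DESeq2 (adjusted p = 0.0280) it was just inside it and not called. *FT*, which encodes florigen, had 0.16 (FDR = 0.00595) and its twin *TSF* -0.05 (FDR = 0.373), and neither was called. In H2A.Z all 6 had regions, and 1 was called lower and 0 higher, beside 1.79% and 2.9% of all genes with H2A.Z. The call was in *TSF*, which had 21.9 and 29.8 CPM in WT and 18.3 and 21.1 in *ref4-3* (log2 fold change -0.41, FDR = 0.0206). The WT libraries were farther apart than the genotypes' nearest libraries, and DESeq2 gave an adjusted p of 0.947. The other *TSF* region, with more fragments, had 0.10, and the sum of both had -0.08 (FDR = 0.619 in edgeR's exact test). An unadjusted p below 0.05 in edgeR's exact test was found at 4 of the 9 H2A.Z regions of these genes, beside 18.3% of all H2A.Z regions. Those of *SVP* (log2 fold change 0.22) and *FD* (-0.22) were among them and were not called.

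The 15 floral MADS-box genes, relatives of the family that build flowers and are mostly silent in leaves, all had both marks, unlike the family itself, where 3 of 6 did. For H3K27me3, 6 of the 15 passed the FDR with positive values under the fold threshold, a class that held 10.7% of all regions in either direction. The exact and quasi-likelihood tests of edgeR and DESeq2 called 0, beside 7.7% and 5.52% of all genes called lower and higher by the exact test, and 7 had an unadjusted p below 0.05, beside 35.2% of all regions. Their median was 0.05 and their range -0.01 to 0.17, so none had a value as low as those of *MAF4* or *MAF5*. For H2A.Z, *SEP2* was called lower (-0.33, FDR = 0.0165) and *SEP1* higher (0.35, FDR = 0.0476) in edgeR's exact test, each in 1 of 2 regions. That test called 1.79% of all genes with H2A.Z lower and 2.9% higher. Neither *SEP2* nor *SEP1* was called by DESeq2 or over the sum of the gene's regions, which gave -0.18 (FDR = 0.149) and 0.17 (FDR = 0.215).

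The genes most like *MAF5* and *FLC* over all 8 libraries were found among 7665 genes with both marks, as the root mean square difference of log2 CPM centred on each mark's mean. For *MAF5* these were AT4G10190 (0.0304), AT5G50220 (0.0369) and AT3G29800 (0.0491), where the median gene was 0.264 away. Each had less of both marks in *ref4-3*, with -0.61, -0.64 and -0.54 in H3K27me3 and -0.38, -0.36 and -0.44 in H2A.Z. Such values follow from the choice, which used these same libraries. For *FLC* they were the overlapping AT5G01675 (0.0178), AT2G22960 (0.0192) and AT5G51790 (0.0274), against a median of 0.133. The last 2, picked in the same way, had 0.15 and 0.11 in H3K27me3 and 0.22 and 0.17 in H2A.Z, none of them called.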

How the data were processed

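Of 12 samples, the 8 immunoprecipitation libraries were used, grouped by sample title, and the 4 input samples were not analysed on their own. The authors trimmed reads with fastp 0.23.2, mapped them to TAIR10 with Bowtie2, kept proper pairs (SAMtools 1.17) and called islands with epic2 (bins and gaps of 200 bp), per library and on merged replicates. The deposited count tables give raw fragments per gene part inside the union of merged islands (at least 200 bp), strand ignored, with column names that say duplicates were removed and with no input subtraction. The authors' island score served only to rank islands within a list, and their −log10 column was not used. Since scaling rests on these regions, a change shared by nearly all of them is not measurable, and the marks were never scaled together.

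Counts were tested with edgeR 4.0.16 (R 4.3.3): TMM factors, dispersions from the genotype groups, exact test, Benjamini-Hochberg FDR below 0.05 over all regions of a mark, fold change above 1.2, no filter. Values are mean ± SD over 2 libraries. Intervals are 95%, from the fitted dispersion. The labels call replicates biological, and nothing states separate plantings, so p-values measure the spread between these samples. The exact test with TMM factors, the quasi-likelihood test and DESeq2 were run on simulated data, and the other fits were not. Alternatives were the quasi-likelihood test, DESeq2 1.42.0, other scalings, a mean count of at least 100, stricter thresholds, a replicate block and each library left out. Gene parts and sequences came from RefSeq's annotation of TAIR10.1, in which all 8663 and 24960 regions lay inside their gene, and copies from blastn 2.17.0. Members, lists and tests were chosen with earlier results of these data known. Named genes are the members, called list genes and all partners and targets, the nearest marked genes, and the 3 genes most like *MAF5* and *FLC*.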

Additional observations from a re-analysis of the deposited data

How the results depend on the processing

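Of 104 alternative fold changes at the family regions, 103 kept their direction and 98 kept both direction and call. The stricter thresholds reuse the main fold changes, so there only the call could change and never the direction. A kept call does not mean a kept FDR, as *FLC* in H3K27me3, not called for its fold, missed the FDR in 3 alternatives and *MAF4* in 1. The exception in direction was the end of *FLC* in H2A.Z, -0.06, which became 0.11 (FDR = 0.783 in edgeR's exact test) without *ref4-3* replicate 2 and ranged from -0.26 to 0.11 with each library left out. With 1 library left out, the lone library of its genotype is taken to vary like the others. The number of H3K27me3 regions called lower, 1, ranged from 1 to 2 with each library left out, *MAF4* joining without WT replicate 2 (-0.30) and without *ref4-3* replicate 2 (-0.28). The number of H2A.Z regions called lower, 1, was 0 with DESeq2 and at a fold change above 1.5, and ranged from 0 to 1 with each library left out, being 0 without WT replicate 1. Over all alternatives *MAF5* ranged from -0.66 to -0.62 in H3K27me3 and from -0.38 to -0.34 at its end in H2A.Z, and *MAF4* from -0.30 to -0.19 and *FLC* from 0.02 to 0.15 in H3K27me3 (highest FDR 0.0506, without WT replicate 1, and 0.518, with loess offsets). In H2A.Z the start of *FLC* ranged from 0.14 (without *ref4-3* replicate 2) to 0.31 and *MAF4* from -0.16 to -0.07 (without WT replicate 1), not called in any. Replicate numbers share nothing in the labels, and deviations of same-numbered samples correlated at 0.07 (H3K27me3) and -0.02 (H2A.Z). With a replicate block the *MAF5* values were -0.64 and -0.36, no family call changed, and all regions called were 691 lower and 503 higher against 663 and 467 in the quasi-likelihood test without it (H3K27me3), and 401 and 621 against 421 and 692 (H2A.Z). Over all regions, calls fell from 1123 to 413 (DESeq2), 654 and 647 (without WT replicate 1 or 2) and 193 (fold change above 1.5) for H3K27me3, and from 1068 to 34, 258, 181 and 119, and to 514 at an FDR below 0.01, for H2A.Z. Islands were also counted only if over at least 50% of a gene or scoring at or above their list's median. Either rule left 2 marked members in each WT H2A.Z library and 1 in each *ref4-3* one. In WT, *MAF5* was just past the first rule, at 50.8% and 54.7% covered. The score rule left 1 and 2 of 3 in the *ref4-3* H3K27me3 libraries.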
